A study of Mus musculus with 7 samples.

Results

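The growth plate and specialised chondrocyte genes are 10 listed genes, Col10a1, Ihh, Matn1, Ucma, Epyc, Snorc, Cnmd, Chad, Cytl1 and Panx3, out of 56854 gene identifiers counted in every library. They were taken by symbol from the Tnc-/- files and by the same Ensembl identifier from the wild-type files. Each library came from the whole shoulder joint of 1 mouse, collected 2 weeks after the left supraspinatus tendon had been repaired (rotator cuff repair), and no unoperated joint was included. The groups were wild type (n = 3) and Tnc-/- (n = 4). Tnc-/- mice lack tenascin C, a glycoprotein of the extracellular matrix made during tendon and cartilage remodelling. The labels give neither the age, sex or strain of the mice nor how the allele was made.

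Cartilage holds chondrocytes at several stages. Resting and proliferating cells of the growth plate lay down collagen II and aggrecan, prehypertrophic cells secrete Indian hedgehog, and hypertrophic cells switch to collagen X before the matrix mineralises. Indian hedgehog acts with parathyroid hormone-related protein in a feedback loop that times this maturation. In an adult joint such genes mark growth plate, epiphyseal and articular cartilage and the mineralised fibrocartilage where tendon meets bone, all of which a whole-joint sample can contain.

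In these joints 8 of the 10 genes had reads and 2 had none. None of the 8 passed the adjusted threshold between the genotypes in the edgeR quasi-likelihood test, where 29.0% of 17791 tested genes did. The closest were Panx3, a channel of prehypertrophic chondrocytes and osteoblasts, and Cytl1, a secreted cytokine-like protein of chondrocytes, both with lower means in Tnc-/-. Over all 8 genes, Tnc-/- library 4 was the highest of the 4 Tnc-/- joints in 7 and library 2 the lowest in 6. The share of all tested genes with these extremes was not counted, so the pattern is not shown to be particular to these genes.

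Levels are CPM, gene counts divided by the library size after TMM scaling in edgeR. Libraries held 13464057 to 18503833 gene counts in wild type and 19250322 to 28191101 in Tnc-/-. The targeted gene Tnc averaged 352 ± 75.5 CPM (SD, n = 3) in the wild-type joints. In the Tnc-/- joints it averaged 41.8 ± 9.26 CPM (SD, n = 4), lower in all 4 but not at 0. The files of the 2 genotypes list different sets of genes, and the counting run therefore cannot be told apart from the genotype. Wild-type libraries 2 and 3 stood apart from the other 5. Olfactory and vomeronasal receptor genes, which a joint should not express, summed over 1773 genes to 0.0969 and 0.0685 CPM per kb of gene span in these 2 libraries, against 0.00637 in wild-type library 1 and 0.00268 to 0.00323 in Tnc-/-. In bulk tissue, fewer cells of a type and less RNA per cell cannot be told apart.

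Col10a1, the collagen of hypertrophic cartilage, and Chad, the leucine-rich matrix protein chondroadherin that binds collagen and cells, had 0 counts in all 7 libraries. Counting error alone would allow up to 3 reads a library, or 0.111 to 0.199 CPM. In the GENCODE M21 annotation both genes lie wholly inside the span of a gene on the opposite strand, Col10a1 inside Nt5dc1 and Chad inside Acsf2. The hosts had reads in every library, Nt5dc1 13.8 to 36.2 CPM and Acsf2 22.9 to 29.0 CPM. Across coding genes placed like this, 711 of 796 (89.3%) had 0 counts in all 7 libraries, against 2014 of 11645 (17.3%) of those overlapping no other gene. The rows that name no gene, given only for Tnc-/-, assigned 14.0 to 14.3% of the reads placed on genes, on several genes or on none to the ambiguous class and 1.61 to 1.97% to no gene. The zeros of Col10a1 and Chad are therefore not read here as absence of the transcripts, and no comparison between the genotypes was made for these 2 genes.

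**Figure D1:**
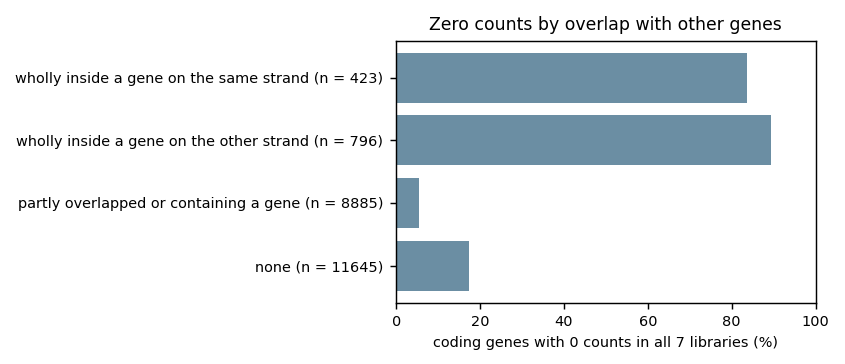
Share of coding genes with 0 counts in all 7 libraries (horizontal axis, percent) by how the gene overlaps others in GENCODE M21 (vertical axis, with the number of genes). The share was 89.3% for genes wholly inside a gene on the other strand, the class of Col10a1 and Chad, and 17.3% for genes with no overlap.

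The same annotation bears on the level of Epyc, or epiphycan, a small leucine-rich proteoglycan of epiphyseal cartilage. The non-coding gene Gm10754 on the opposite strand covers 1041 bases of the Epyc exons, 40.6% of their length, so part of its reads may be uncounted. Epyc also has the widest span of the 10, 38.4 kb. At the receptor-gene density, a span of that width would hold 3.72 CPM in wild-type library 2 and 2.63 CPM in library 3. Epyc was measured at 5.32 and 2.19 CPM in those libraries, while in wild-type library 1 (3.33 CPM) the same estimate gave 0.245 CPM. For Matn1 it gave 1.07 and 0.759 CPM in wild-type libraries 2 and 3, above the 0.399 and 0.668 CPM measured. The estimate exceeds the measured level there, so it is a rough guide to scale and not the amount of background in a gene. For Ihh, Ucma and Cnmd the estimate came to 8.26 to 17.6% of the measured level in wild-type libraries 2 and 3.

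Per kb of exon, which allows levels to be compared between genes, Cytl1 was the most abundant, with a median of 56.5 CPM per kb over the 7 libraries, and Snorc followed at 26.3. Cnmd had a median of 10.8, Ucma 7.56 and Panx3 5.96 CPM per kb. Ihh (1.49), Epyc (1.11) and Matn1 (0.199) were the lowest of the genes with reads. The range over the 7 libraries of each of these genes overlapped that of the next in this order.

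Ihh encodes the hedgehog ligand of prehypertrophic chondrocytes. Given in library order here and for the genes that follow, wild-type joints had 4.29, 4.59 and 4.56 CPM, and Tnc-/- joints had 3.18, 3.18, 5.71 and 12.3 CPM. The wild-type joints were within 1.07-fold of each other, whereas the Tnc-/- joints spanned 3.87-fold, from below every wild-type joint to well above them. The log2 fold change, Tnc-/- relative to wild type, was 0.44 (SE 0.54; edgeR, adjusted p = 0.573). Without Tnc-/- library 4 it was -0.16 (adjusted p = 0.837), so its sign rested on that joint.

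Panx3 forms membrane channels in prehypertrophic chondrocytes and osteoblasts. It had 24.6, 21.1 and 26.8 CPM in wild type and 7.99, 7.69, 13.3 and 20.5 CPM in Tnc-/-. All 4 Tnc-/- joints lay below all 3 wild-type joints, by a narrow margin for Tnc-/- library 4, and 17.4% of all tested genes were separated in that direction. The log2 fold change was -0.97 (SE 0.34; edgeR, adjusted p = 0.0638). It remained similar without wild-type libraries 2 and 3, at -1.0, where the lone wild-type library is assumed to vary like the Tnc-/- libraries. With the receptor background as a covariate it was -1.16 (edgeR, SE 0.54, adjusted p = 0.281). The covariate was lower in every Tnc-/- library (-1.80 to -1.47) than in wild type (-0.41, 3.66 and 3.18), so it overlaps with genotype. A call lost with it, here and below, can come from a larger SE and is not read as no difference.

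Cytl1 lay at 69.6, 70.6 and 59.7 CPM in wild type and at 60.8, 35.04, 45.2 and 40.0 CPM in Tnc-/-. Tnc-/- library 1 lay within the wild-type range and the other 3 lay below it. The log2 fold change was -0.56 (SE 0.19; edgeR, adjusted p = 0.056). With the background covariate it was -0.60 (adjusted p = 0.324), and without wild-type libraries 2 and 3 it was -0.62 (adjusted p = 0.137). Cytl1 supplied 43.9 to 47.9% of the summed CPM of the 10 genes in wild type and 27.6 to 55.2% in Tnc-/-.

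Cnmd encodes chondromodulin, a glycoprotein that keeps cartilage free of vessels. Its level was 20.4, 13.5 and 20.3 CPM in wild type and 12.5, 8.86, 19.99 and 31.1 CPM in Tnc-/-. The wild-type mean was 18.1 ± 3.96 CPM (SD, n = 3) and the Tnc-/- mean 18.1 ± 9.80 CPM (SD, n = 4), with the Tnc-/- joints lying on both sides of the wild-type range. The log2 fold change was 0.0033 (SE 0.40; edgeR, adjusted p = 0.997). An SE of that size leaves room for a change in either direction.

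Snorc encodes a transmembrane proteoglycan of chondrocytes. It lay at 22.6, 20.9 and 15.2 CPM in wild type and at 19.0, 10.4, 17.0 and 26.9 CPM in Tnc-/- (log2 fold change -0.096, SE 0.31; edgeR, adjusted p = 0.841). Ucma, a vitamin K-dependent protein of the upper growth plate zone, lay at 5.04, 10.8 and 6.68 CPM in wild type and 3.66, 3.96, 7.56 and 10.1 CPM in Tnc-/- (-0.25, SE 0.48; adjusted p = 0.721). Both groups overlapped for each gene, with Tnc-/- library 4 at or near the top and library 1 or 2 at the bottom. The Ucma difference turned to 0.31 without wild-type libraries 2 and 3 and to 0.50 with the background covariate, neither past the threshold.

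Matn1 encodes matrilin-1, a matrix protein of growth plate, tracheal and ear cartilage, and was the least abundant gene with reads. It had 25, 6 and 11 counts in wild type and 6, 6, 5 and 24 counts in Tnc-/-, or 1.34, 0.399 and 0.668 CPM and 0.222, 0.334, 0.280 and 1.26 CPM. One joint of each genotype, wild-type 1 and Tnc-/- 4, stood above the rest. In edgeR the difference was -0.63 (log2, SE 0.83; adjusted p = 0.601), and 0.049 without wild-type library 1 (adjusted p = 0.967). It was -1.37 without wild-type libraries 2 and 3 (adjusted p = 0.386) and -2.02 with the background covariate (adjusted p = 0.427). Epyc lay at 3.33, 5.32 and 2.19 CPM in wild type and 2.85, 0.557, 2.35 and 2.93 CPM in Tnc-/-, with Tnc-/- library 2 far below the others (-0.73, SE 0.63; adjusted p = 0.414). The Epyc difference was -0.34 without wild-type library 2 and -0.42 without Tnc-/- library 2.

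**Figure D2:**
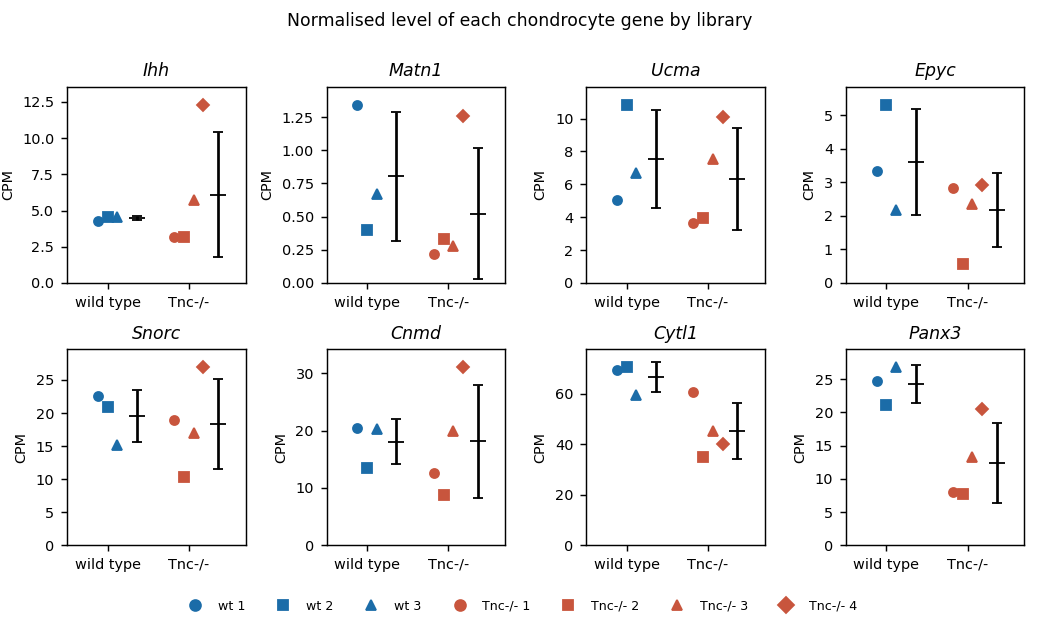
Normalised level (vertical axes, CPM) of the 8 genes with reads in each wild-type library (blue, n = 3) and each Tnc-/- library (red, n = 4), with the group mean and SD in black. Panx3 is the gene whose groups do not overlap, and Tnc-/- library 4 (diamond) is the highest of its group in all panels but Cytl1.

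Over the whole fit, 0 of the 8 tested members were called in edgeR (adjusted p under 0.05), where 29.0% of 17791 tested genes were called, 10.3% higher and 18.7% lower. With libraries scaled by their totals instead of TMM, the median over all genes shifted to -0.24. Of the calls 17.3% were then higher in Tnc-/-, against 35.5% with TMM and 72.5% in limma voom. With library totals both Panx3 and Cytl1 were called, where 30.9% of all genes were. Of the 8, only Panx3 and Cytl1 (2 genes) had an unadjusted p below 0.05, where 42.3% of tested genes passed. The median log2 fold change of the 8 was -0.40, beside -9.0e-04 for all tested genes, and 2 were above and 6 below 0. DESeq2 with Benjamini-Hochberg adjustment called Panx3 (-1.01, adjusted p = 0.0295) and Cytl1 (-0.60, adjusted p = 0.0277), where it called 35.1% of all genes, and limma voom called 0 members, where it called 5.64%. With the background covariate or without wild-type libraries 2 and 3 edgeR again called 0 members, where 2.24 and 4.45% of all genes passed. Without wild-type library 1, which leaves both libraries that stood apart as the wild-type group, edgeR called 1 member (Panx3) and 64.2% of all genes. Both Panx3 and Cytl1 were called with at least 10 counts in every library (24.3% of all genes), Cytl1 with DESeq2 size factors (28.3%) and without Tnc-/- library 1 (16.6%), and Panx3 without Tnc-/- library 4 (16.5%).

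**Figure D3:**
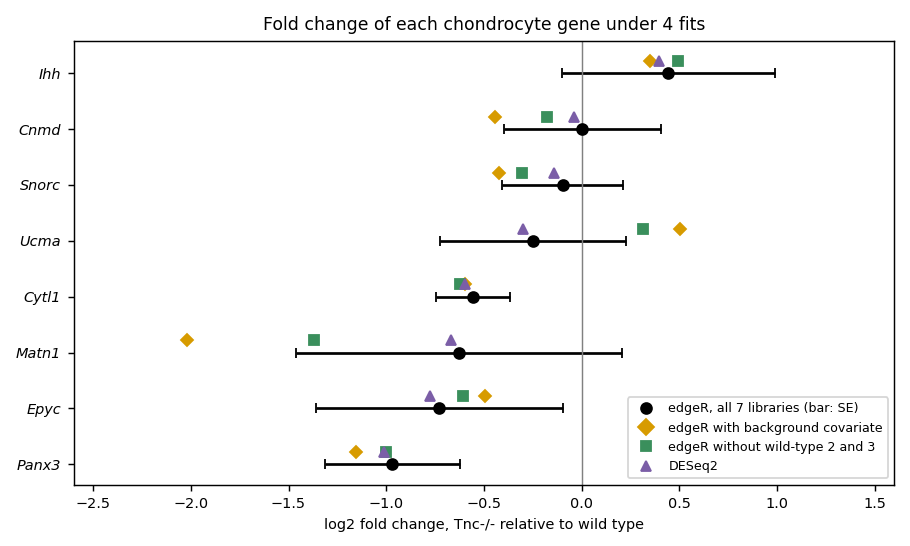
Log2 fold change of each gene, Tnc-/- relative to wild type (horizontal axis), in the edgeR fit to all 7 libraries (black, bars are SE), with a background covariate (orange), without wild-type libraries 2 and 3 (green) and in DESeq2 (purple). Panx3, Cytl1, Epyc, Matn1 and Snorc lie below 0 in all 4 fits and Ihh above it, whereas Ucma and Cnmd change sign between them.

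Across the Tnc-/- mice most of the genes had the same highest and the same lowest joint, while the order between these varied. Relative to each gene's own mean over the 7 libraries on the log2(CPM + 0.5) scale, the average over the 8 genes was 0.28, 0.26 and 0.11 for the wild-type joints and -0.34, -0.78, -0.049 and 0.52 for the Tnc-/- joints. The range in Tnc-/- covered both ends of the series. Tnc-/- library 2 was the lowest of all 7 joints for Ihh, Epyc, Snorc, Cnmd, Cytl1 and Panx3, and library 1 for Matn1 and Ucma. Tnc-/- library 4 was the highest of all 7 for Ihh, Snorc and Cnmd. Cytl1 did not follow, being highest of its group in library 1 and below its own mean in library 4.

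**Figure D4:**
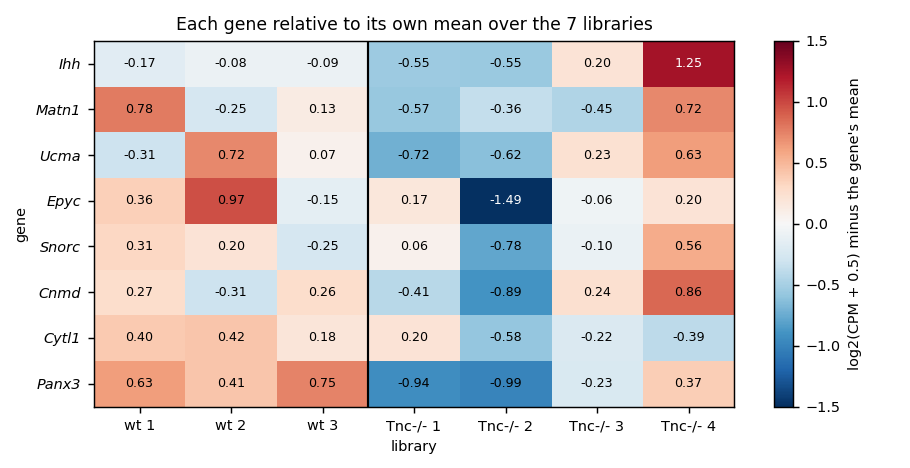
Level of each gene (rows) in each library (columns) minus that gene's mean over the 7 libraries, on the log2(CPM + 0.5) scale. Tnc-/- library 4 is above the mean in all rows but Cytl1, and Tnc-/- library 2 is below it in all rows, down to -1.49 for Epyc.

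Markers of other tissues also differed between these joints. The summed level of 8 skeletal muscle genes was highest in Tnc-/- library 2, at 47478 CPM, against 31868 to 37055 CPM in the other Tnc-/- libraries and 22149 to 30418 CPM in wild type. The 10 osteoblast and osteocyte genes and the 6 tendon fibroblast genes were highest in Tnc-/- library 4, at 19318 and 4632 CPM, against 8704 to 14559 and 2765 to 3624 CPM in the other 6 libraries. Col1a1 alone averaged 10690 CPM in wild type and 12850 CPM in Tnc-/-, so the osteoblast and osteocyte sum is mostly that 1 gene. The 6 erythroid genes summed to 12378 to 24586 CPM in Tnc-/- and 4375 to 8462 CPM in wild type, and the 7 neutrophil genes to 6216 to 10582 and 2699 to 5633 CPM. The 7 osteoclast genes (1032 to 1444 CPM) and the 5 synovial lining genes (1201 to 1676 CPM) overlapped between the groups. Of all libraries, the synovial lining sum was highest in Tnc-/- library 4 and lowest in Tnc-/- library 2, as was the tendon fibroblast sum. The 6 epidermis genes stayed under 5 CPM in sum outside wild-type libraries 2 and 3. Omd, Acp5, Scx and Alas2, each a defining marker of one of these lists, were at 0 in all libraries and lie, like Col10a1, inside a gene on the other strand. The part of tissue composition in the chondrocyte values was not tested.

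Promoters were looked at because 7 of the 8 genes were, within Tnc-/-, highest in the same joint, a count without a share over all genes. RefSeq gave promoters for 8 of the 10 genes (build GRCm38.p6); Snorc and Panx3 had no entry. The 250 bases before the start were searched on both strands for the letters ACAAAG and ACAATG (SOX factors), TGTGGT and TGCGGT (RUNX factors), GGGTGGTC (GLI factors) and TATAAA (the TATA box). A RUNX match was present in Ihh, Matn1, Ucma and Chad, and in 18.6% of all 32851 promoters. A SOX match was present in Col10a1 and Epyc, and in 25.2% of all promoters, a TATAAA match in Col10a1 and Chad (12.4% of all), and a GLI match in none (0.703% of all). Whether matches and the pattern across joints go together was not tested. The 3 genes with reads and a RUNX match are shown beside Cytl1, which like Cnmd held none, with matches in capitals.
Ihh (chr1:74951673-74951922, minus strand): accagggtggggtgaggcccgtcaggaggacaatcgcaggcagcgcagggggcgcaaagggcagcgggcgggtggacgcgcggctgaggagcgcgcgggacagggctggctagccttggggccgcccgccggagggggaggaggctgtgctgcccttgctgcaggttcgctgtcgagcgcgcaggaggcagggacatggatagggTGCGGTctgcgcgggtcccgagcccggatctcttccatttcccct
Matn1 (chr4:130944135-130944384, plus strand): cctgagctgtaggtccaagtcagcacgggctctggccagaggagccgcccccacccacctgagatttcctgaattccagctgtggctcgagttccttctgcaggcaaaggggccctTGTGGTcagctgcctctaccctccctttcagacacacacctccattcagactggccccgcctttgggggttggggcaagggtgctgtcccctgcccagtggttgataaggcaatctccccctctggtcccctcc
Ucma (chr2:4975872-4976121, plus strand): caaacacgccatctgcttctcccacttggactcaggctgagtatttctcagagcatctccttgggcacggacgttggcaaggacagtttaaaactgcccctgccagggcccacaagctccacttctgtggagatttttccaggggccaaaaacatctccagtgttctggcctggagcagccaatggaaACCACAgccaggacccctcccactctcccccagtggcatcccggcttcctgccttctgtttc
Cytl1 (chr5:37735269-37735518, plus strand): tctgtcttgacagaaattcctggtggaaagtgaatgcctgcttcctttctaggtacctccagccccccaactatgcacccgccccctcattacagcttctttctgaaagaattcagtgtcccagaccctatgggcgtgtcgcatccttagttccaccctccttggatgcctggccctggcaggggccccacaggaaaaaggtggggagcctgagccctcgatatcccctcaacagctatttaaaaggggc
The Ihh match begins 45 bases before the start, that of Ucma, which reads on the other strand, 62 bases before it, and that of Matn1 134 bases before it. These are matches of letters and not shown binding sites.

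Ratios between genes of the same library do not depend on how libraries are scaled. Of the 28 pairs of the 8 genes, 3 had ratios with all Tnc-/- joints on one side of all wild-type joints, or 10.7%, where 32.6% of all pairs of tested genes with reads in every library were so separated. Separation of ratios was thus no more frequent among these genes than in general. All 3 pairs held Panx3. Reads of Ihh per read of Panx3 were 0.174, 0.217 and 0.170 in wild type and 0.398, 0.413, 0.429 and 0.601 in Tnc-/-, 2.44-fold higher on the geometric mean. Cnmd to Panx3 was 0.828, 0.638 and 0.757 in wild type and 1.57, 1.15, 1.5 and 1.52 in Tnc-/-, and Snorc to Panx3 was 0.917, 0.991 and 0.567 against 2.38, 1.35, 1.27 and 1.32. The Tnc-/- joints thus differed less from each other in the ratio of Cnmd to Panx3 than in either gene alone.

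**Figure D5:**
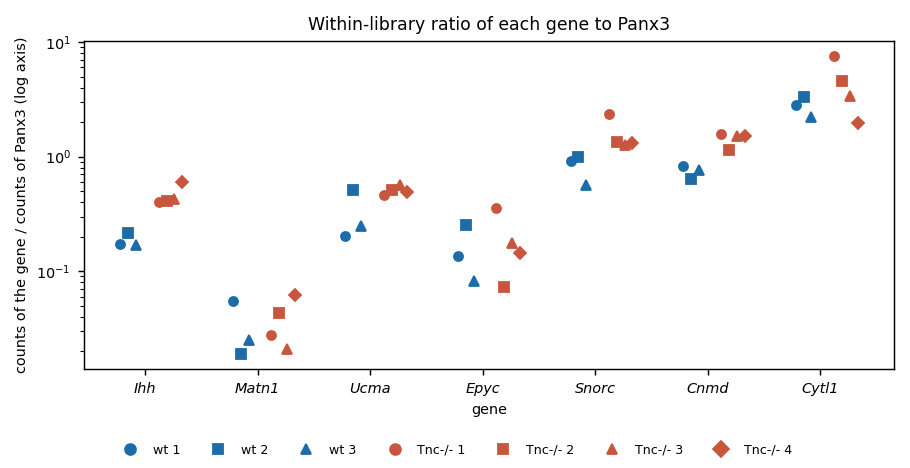
Counts of each gene divided by counts of Panx3 in the same library (vertical axis, log scale) for wild type (blue, n = 3) and Tnc-/- (red, n = 4). The groups are apart for Ihh, Snorc and Cnmd and overlap for Matn1, Ucma, Epyc and Cytl1.

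Col2a1, the main collagen of cartilage, gave a second reference. It lay at 991, 368 and 524 CPM in wild type and 424, 363, 1047 and 1380 CPM in Tnc-/-, with wild-type library 1 and Tnc-/- libraries 3 and 4 well above the rest (log2 fold change 0.36, SE 0.52; edgeR, adjusted p = 0.637). Panx3 per 100 of Col2a1 was 2.49, 5.75 and 5.12 in wild type and 1.89, 2.12, 1.27 and 1.48 in Tnc-/-, lower in all 4 joints. Matn1 per 100 of Col2a1 was 0.135, 0.108 and 0.128 in wild type and 0.0524, 0.0921, 0.0267 and 0.091 in Tnc-/-, also lower in all 4, though from as few as 5 reads. The other 6 genes overlapped in this ratio. Of 17790 other tested genes, 7.61% had ratios to Col2a1 that did not overlap between the groups, 6.48% lower in Tnc-/-, and the 2 members were not tested against that share. Ihh per 100 of Col2a1 ran from 0.545 to 0.891 in Tnc-/-, a narrower range than that of Ihh itself, and from 0.433 to 1.25 in wild type.

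The wider cartilage matrix list had 20 genes, 19 of them tested. Of these 3 were called in edgeR, 2 higher (Col11a2 and Col27a1) and 1 lower (Sox5), and 16 did not pass, a share below the 29.0% of all genes; the median log2 fold change was 0.031. Sox5, a partner of Sox9 with a span of 954 kb, lay at 23.4, 113 and 89.9 CPM in wild type and 23.4, 32.8, 33.1 and 26.4 CPM in Tnc-/-, so wild-type library 1 was at the Tnc-/- level. Its difference of -1.38 (edgeR, adjusted p = 0.0448) turned to 0.30 without wild-type libraries 2 and 3 (adjusted p = 0.441) and to 0.95 with the background covariate (adjusted p = 0.102). The call was lost when any single library other than wild-type 1 was left out (-0.97 to -1.46, adjusted p from 0.0876 to 0.159). Col27a1, a fibrillar collagen of cartilage, rose from 97.5, 76.2 and 77.6 CPM in wild type to 137, 129, 155 and 188 CPM in Tnc-/- (0.86, SE 0.17; adjusted p = 0.00954). It lies 625 kb from Tnc on chromosome 4 in GENCODE M21. The call was lost without wild-type libraries 2 and 3 (0.64, adjusted p = 0.104) and with the background covariate (0.50, adjusted p = 0.34). Col11a2, a chain of collagen XI, rose from 276, 169 and 140 CPM to 359, 337, 471 and 624 CPM (1.198, SE 0.30; adjusted p = 0.0193). Its call was lost with the background covariate (0.40, adjusted p = 0.612), without wild-type libraries 2 and 3 (0.69, adjusted p = 0.201), in limma voom (1.22, adjusted p = 0.0504) and when any one of wild-type joints 2 and 3 and Tnc-/- joints 3 and 4 was left out (0.99 to 1.17, adjusted p up to 0.0842).

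Acan, the aggrecan core protein, lay at 222, 139 and 193 CPM in wild type and 190, 188, 230 and 518 CPM in Tnc-/- (0.60, SE 0.38; edgeR, adjusted p = 0.254). The difference was 0.13 without Tnc-/- library 4, 0.33 without wild-type libraries 2 and 3 and 0.030 with the background covariate. Tnc-/- library 4 was again the highest. Sox9, the transcription factor that keeps the chondrocyte state, had 18.3, 24.2 and 27.3 CPM in wild type and 15.1, 23.8, 19.99 and 24.2 CPM in Tnc-/- (-0.16, SE 0.22; adjusted p = 0.61).

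The list of hedgehog, PTHrP and hypertrophy genes had 26 genes, all tested. In edgeR 2 were higher (Mef2d and Runx3), 5 lower (Bmp6, Bmpr1b, Foxa3, Gli3 and Hhip) and 19 did not pass, near the 29.0% of all genes; the median log2 fold change was -0.22. In 4 of the 5 lower genes, all but Hhip, wild-type libraries 2 and 3 were both at least 2 times wild-type library 1. Foxa3, a forkhead factor that acts in hypertrophic chondrocytes, had 2.04, 42.8 and 29.9 CPM in wild type and 0.223 to 0.481 CPM in Tnc-/- (-5.91, SE 0.91; adjusted p = 0.0067). Without wild-type libraries 2 and 3 the difference was -2.31. The call was lost in edgeR with the background covariate (-1.03, adjusted p = 0.295) and with replicate numbers as a block (-5.25, adjusted p = 0.070). It was also lost in limma voom (-4.88, adjusted p = 0.246). Mef2d, a MADS-box factor also abundant in muscle, rose from 145, 110 and 101 CPM to 205, 241, 235 and 198 CPM (0.89, SE 0.17; adjusted p = 0.00837). The summed level of the skeletal muscle list was also higher in every Tnc-/- joint, with 1 of its 8 genes called higher, and its part in the Mef2d difference was not tested. Without wild-type libraries 2 and 3 its call was lost (0.59, adjusted p = 0.0903), as it was with the background covariate (0.48, adjusted p = 0.298). Of the whole list, Runx3 and Hhip included, none of the 7 calls held with the covariate, where edgeR called 0 list genes (9 at an unadjusted p under 0.05). That covariate overlaps with genotype, and edgeR with it called 2.24% of all genes.

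The partners and targets of the maturation loop were measured at moderate levels. Pthlh, which encodes the PTHrP ligand, lay at 4.45, 13.0 and 13.0 CPM in wild type and 5.77, 8.19, 8.34 and 9.99 CPM in Tnc-/- (-0.33, SE 0.42; edgeR, adjusted p = 0.58). Its receptor Pth1r ranged from 70.8 to 101 CPM in wild type and from 80.7 to 120 CPM in Tnc-/- (0.13, SE 0.18; adjusted p = 0.627). Runx2, a master regulator of hypertrophy and bone formation with a span of 319 kb, had 57.3, 94.4 and 97.9 CPM in wild type and 48.4, 65.0, 61.1 and 47.6 CPM in Tnc-/- (-0.58, SE 0.21; adjusted p = 0.0646). Mmp13, the collagenase of hypertrophic cartilage, ranged from 362 to 605 CPM in wild type and from 332 to 486 CPM in Tnc-/- (-0.31, SE 0.21; adjusted p = 0.297). It was -0.023 without wild-type library 1, -0.48 without wild-type library 2, -0.65 without wild-type libraries 2 and 3 (adjusted p = 0.105) and -0.87 with the background covariate (adjusted p = 0.119). None of these 4 passed the threshold in edgeR, and for Runx2 and Pthlh wild-type libraries 2 and 3 were the highest of the 7. Runx2 was called in DESeq2 with Benjamini-Hochberg adjustment (adjusted p = 0.0278), with library totals (0.0286), with at least 10 counts in every library (0.0461) and without wild-type library 1 (0.00127). Without wild-type libraries 2 and 3 Runx2 was -0.051 and Pthlh 0.85, and with the background covariate they were 0.18 and 1.26, with no adjusted p under 0.05.

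Of 12304 other genes averaging 5 CPM or more, the 8 whose pattern over the 7 libraries was most like the average of the 8 members were Sdc4, Ackr3, Ly6a, Slc1a4, Mamdc2, Matn3, Ndrg4 and Emp1. Likeness was Pearson's r of log2(CPM + 0.5) with that average, given as a description over 7 joints that share libraries and scaling. It ran from 0.982 for Sdc4, a membrane proteoglycan, to 0.886 for Emp1, and was 0.897 for Matn3, a growth plate matrilin. Sdc4 lay at 86.9, 88.5 and 78.8 CPM in wild type and 69.5, 63.4, 76.5 and 91.3 CPM in Tnc-/-. Matn3 lay at 23.8, 12.2 and 16.1 CPM and at 9.99, 4.46, 17.2 and 21.5 CPM. The groups overlapped for all 8 of these genes. Among other cartilage, joint and bone genes r was 0.845 for Comp, 0.8294 for Prg4, 0.769 for Col9a1, 0.719 for Ibsp, 0.625 for Col2a1, 0.587 for Mmp13, 0.451 for Acan, 0.238 for Pth1r, 0.215 for Sox9 and -0.299 for Bglap.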

How the data were processed

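Whole-joint poly(A) RNA libraries of 7 mice were analysed. The authors deposited unnormalised gene-level counts for each library. HISAT2 2.2.1, HTSeq 2.0.2 and DESeq2 1.38.3 and the build GRCm39 are named per the submitters' processing notes; annotation, strand setting and overlap mode are not given in the sources used here. Identifiers in all files numbered 56854, while 126 occurred solely in wild-type files and 87 solely in those of Tnc-/-. Rows that name no gene held 30.1 to 32.7% of the reads listed for Tnc-/- and were left out.

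Genotypes were compared with edgeR 4.0.16 in R 4.3.3 (filterByExpr, TMM, robust quasi-likelihood F test, genotype as the term, Benjamini-Hochberg adjustment over 17791 tested genes, threshold 0.05); SE was obtained as |log2 fold change| over the root of the F statistic. The tools were run on simulated counts that lack the background of wild-type libraries 2 and 3, so that run does not test the fits under it. Alternatives were DESeq2 1.42.0, limma 3.58.1 voom, other scalings and filters, a replicate block, a background covariate (centred log2 summed CPM of 1775 receptor genes) and left-out libraries. Spans, exon lengths and overlaps come from GENCODE M21 (GRCm38), not the authors' build. Intervals and floors cover counting error only. P-values compare the group difference with the spread between libraries, each from 1 mouse. Named genes were the members, Tnc, 7 reference genes, the 2 smallest p of each list and the 8 most alike in pattern; Sox5, Nt5dc1, Acsf2, Gm10754, list genes given by name alone, Comp, Prg4, Col9a1, Ibsp, Bglap and Omd, Acp5, Scx and Alas2 were added after their values were seen. The members and lists were chosen with earlier results of these data known. The numbers shared by the labels (1 to 3) do not mark a stated batch or litter.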

Additional observations from a re-analysis of the deposited data

Results flagged for a closer look

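In the 4 Tnc-/- libraries, 15 genes were tested for a joint far from the others (Dixon's test), and about 1 in 20 would stand out by chance. Matn1 in Tnc-/- library 4 stood apart at 1.26 CPM, separated from the next joint by 0.891 of the range, above the critical value for 4 samples. Acan in Tnc-/- library 4 stood apart at 517.9 CPM, with a gap of 0.874 of the range. Library 4 was also the joint in which Ihh, Snorc and Cnmd were highest of all 7, without passing this test.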

How the results depend on the processing

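The number of genes called (5159) became 1653 in DESeq2 with Bonferroni adjustment, 1004 in limma voom, 399 with the background covariate, 825 without wild-type libraries 2 and 3, and 2229 to 14113 with 1 library left out. The members called (0) became 2 in DESeq2 with Benjamini-Hochberg adjustment, with library totals and with at least 10 counts in every library, 1 with DESeq2 size factors in edgeR, and 0 to 1 with 1 library left out (Panx3 without wild-type 1 or Tnc-/- 4, Cytl1 without Tnc-/- 1). The cartilage matrix calls (3) became 0 in DESeq2 with Bonferroni adjustment (4 in DESeq2 with Benjamini-Hochberg adjustment), with the covariate or with both wild-type libraries left out, 1 in voom, 5 with library totals and 1 to 3 with 1 library left out. The hedgehog and hypertrophy calls (7) became 2 in DESeq2 with Bonferroni adjustment (10 with Benjamini-Hochberg adjustment) and 2 in voom, 0 with the covariate, 1 without both wild-type libraries and 2 to 11 with 1 library left out.

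Same-numbered deviations correlated across genes at -0.0053, 0.10 and -0.0055, and differently numbered ones at -0.10 to 0.092. With so few libraries this cannot show whether the numbers shared by the labels pair them. With the numbers as a replicate block, edgeR called 1932 genes (10.9% of those tested), 1 member (Panx3), 2 cartilage matrix and 2 hypertrophy genes. In that fit Col11a2 was 1.04 (adjusted p = 0.0593), Acan 0.15, Ihh -0.21, Matn1 -1.38, Cnmd -0.44 and Col2a1 -0.079.

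Of 354 fold changes over 21 genes and 17 alternatives, 276 kept direction and side of the threshold, 15 newly passed, 28 no longer passed and 35 changed sign; the cause was not tested. Cnmd was -0.038 in DESeq2 and with its size factors, -0.17 in voom, -0.24 with library totals, -0.075 with at least 10 counts, -0.44 with the covariate and -0.18 without both wild-type libraries. With the covariate and without both wild-type libraries respectively, Ucma was 0.50 and 0.31, Col2a1 -0.86 and -0.31, Sox9 0.28 and 0.17, Pthlh 1.26 and 0.85, Sox5 0.95 and 0.30, and Pth1r -0.19 and -0.037. Runx2 was 0.18 with the covariate and Pth1r -0.12 with library totals. With 1 library left out, Ihh ran from -0.16 to 0.65, Matn1 from -0.94 to 0.049, Ucma from -0.58 to 0.11, Snorc from -0.34 to 0.12, Cnmd from -0.39 to 0.23, Col2a1 from -0.040 to 0.94 and Pth1r from -0.021 to 0.30. Matn1 rests on 5 to 25 reads a library.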
